A study of Danio rerio with 4 samples.

Results

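The 26S proteasome genes were examined by RNA-seq in cells that zebrafish larvae mark with mCherry, with 2 libraries from wild type (WT) and 2 from alms1 mutants (alms1MUT). Members were the protein-coding genes whose name begins with psm, a letter from a to g and a digit, 57 of the 42298 genes in the files. Of these, 21 encode subunits of the core particle (psma, psmb) and 36 are regulatory (psmc to psmg). Wild-type larvae carried Tg(ins:mCherry), in which the insulin promoter drives mCherry, and the mutants carried the same transgene with the genotype alms1-/-. The mutant allele is not named in the labels, nor is any treatment. All larvae were 5 days post-fertilization and were dissociated whole, and mCherry-positive cells were sorted from many larvae together. One name that the rule takes, psmc3ip, belongs to a cofactor of meiotic recombination and not to a proteasome subunit, and 3 entries on unplaced scaffolds carry the name psmd2 (psmd2_1, psmd2_2 and psmd2_3). Whether these are parts of 1 gene or separate copies is not known from the files, and each is counted as a member.

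The proteasome degrades proteins tagged with ubiquitin and is thereby a main route by which cells remove short-lived and misfolded proteins. In secretory cells, β-cells among them, these include proteins withdrawn from the endoplasmic reticulum. Its core particle is a barrel of outer alpha rings (psma) around inner beta rings (psmb), 3 of whose subunits cut peptide bonds. The regulatory particle that caps the barrel has a ring of ATPases (psmc), which unfold the substrate and thread it into the core, and non-ATPase subunits (psmd), which bind ubiquitin chains and remove them. Other activators (psme), an inhibitor (psmf) and assembly chaperones (psmg) act on the same core. In vertebrates infection and interferon induce alternative beta subunits that form the immunoproteasome, and cells short of proteasome activity raise most subunit genes together through the transcription factor Nrf1.

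Each library held 42761199 to 50467517 counted reads. The labels call the cells β-cell enriched, but the insulin gene ins had 20 and 61 reads in wild type against 534 and 447 in the mutants, and insb had 151, 16, 864 and 807. The targeted gene alms1 had 24.9 and 23.1 normalised CPM (reads scaled to a common library size) in wild type against 8.98 and 18.4 in the mutants (adjusted p = 0.104), and a mutation need not change its transcript level. Markers of other tissues were abundant, and many moved between the groups. Among all 28079 genes tested 24.3% were called lower in the mutants and 19.2% higher. All 13 skin markers were lower in the mutants, their summed level falling from between 50938 and 57057 CPM in wild type to between 5538 and 5981, and 7 of 10 leukocyte markers were lower (556 and 568 CPM against 208 and 231). Higher levels were called for 10 of 12 acinar markers (923 to 1356 CPM against 2808 to 4302), 9 of 11 liver markers (193 to 260 against 552 to 760), 8 of 13 skeletal muscle markers (3176 to 3270 against 6379 to 8573), 5 of 16 β-cell markers (117 to 122 against 196 to 197) and 2 of 7 erythroid markers (9786 to 17536 against 16028 to 26622). Of 11 neuron markers 1 was higher and 3 were lower (722 to 848 CPM against 769 to 863), and 1 of 10 photoreceptor and lens markers was lower (1509 to 1697 against 939 to 1193). The counts called for erythroid, neuron, and photoreceptor and lens markers were near or below those shares of all genes. The summed erythroid and neuron levels overlapped between the groups. Every marker in these lists had reads in every library. The part of these markers in the proteasome results was not tested, and fewer cells of a type cannot be told apart from less RNA per cell. Long genes took more reads in the mutants. Genes spanning over 160 kb held 9.97% and 8.36% of the reads in wild type but 22.4% and 23.4% in the mutants. A background level was taken as the 10th percentile of long coding genes (80 to 160 kb). It was 8.03 and 5.23 reads per kb in wild type against 15.0 and 21.8 in the mutants.

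In wild type, nearly all members passed a low detection threshold. With detection set at 10 reads and 1 TPM (reads per kb scaled to the library) in both libraries, 54 of 57 members were detected, 19 of 21 core and 35 of 36 regulatory. The 3 that were not were psmb10, psmb11b and psmc3ip. This threshold is near the background level, which would give psmb10 27.3 and 17.8 of its 28 and 24 wild-type reads. At 5 TPM 44 members passed, 16 core and 28 regulatory. The share of all genes that passes was not computed. Core subunit genes took 0.0891% and 0.108% of the wild-type reads (exact 95% binomial intervals 0.0883% to 0.0899% and 0.107% to 0.109%, counting error only), and regulatory genes took 0.180% and 0.164%. TPM here is per kb of the whole gene, introns included, and the Spearman correlation of mean TPM with span over the 57 members was -0.26. The highest value, 546 ± 18.6 TPM (SD, n = 2), belonged to psmd2_3, an entry of 518 bp that may not span a whole gene. Below it came psmg3, a chaperone that helps to build the alpha ring, at 147 ± 4.18 TPM, the ATPase gene psmc3 at 83.1 ± 11.5, psma1 at 71.7 ± 1.1 and the lid subunit gene psmd8 at 68.0 ± 15.0. The range of psmd8 overlaps those of psmc3 and psma1, and those of psmc2 (62.2 ± 12.2) and psma8 (61.0 ± 4.02) below it. The order from psmc3 down is thus not resolved. The level of psma1 is also uncertain, as it lies inside the span of slc10a3 and had no uniquely mapped read. Among the catalytic subunits, psmb7 (trypsin-like activity, 51.8 ± 4.48) and psmb5 (chymotrypsin-like activity, 47.4 ± 2.61) did not differ in TPM beyond their spread. psmb6 (caspase-like activity) lay lower at 14.9 ± 0.703 TPM. In wild-type reads psmb5 was above psmb7, with 8448 and 9634 over 19307 bp against 5036 and 5493 over 10306 bp. Ranks by TPM thus depend on the span, which for psmg3 was 1159 bp.

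Most proteasome genes were lower in the alms1 mutant libraries. Of the 57 members, all of which were tested, 42 were lower by edgeR's quasi-likelihood test at an adjusted p of 0.05 and 1, psme4a, was higher, compared with 24.3% of 28079 genes tested that were lower and 19.2% that were higher. The members lower are 73.7% of the list. Among the 24929 protein-coding genes tested, the kind that the members are, 26.5% were lower and 18.7% higher. Both mutant libraries lay below both wild-type libraries for 50 members, above for 5, and overlapped for 2, where among all genes tested 37.8% lay below and 39.1% above. The median log2 fold change was -1.49 for the core genes and -1.36 for the regulatory genes, compared with 0.03 for all genes tested. In the mutants the core genes took 0.0554% and 0.0484% of all reads and the regulatory genes 0.107% and 0.108%. No test was made of such a share, since an exact two-sided permutation test of 2 libraries against 2 gives 0.33 at best. The p-values measure the spread between these libraries, which may be technical, since nothing says that they came from separate sorts.

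**Figure D1:**
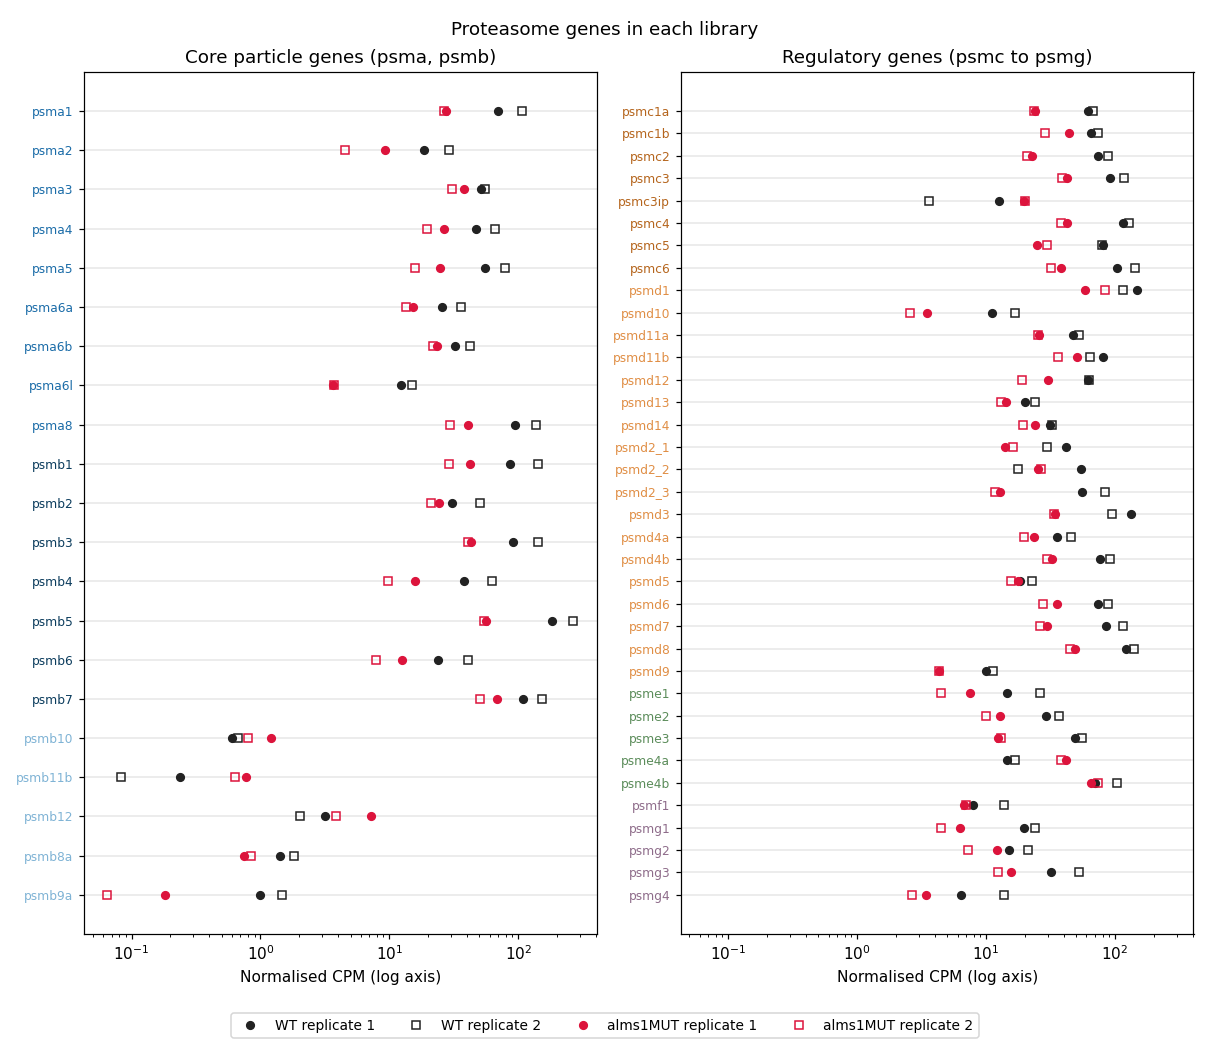
Normalised CPM (log axis) of the 21 core and 36 regulatory genes in each of the 4 libraries, black for WT and red for alms1MUT, filled circles for replicate 1 and open squares for replicate 2. Both red symbols lie to the left of both black symbols for 50 of the 57 genes.

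The number of calls depended on how libraries were scaled and on which libraries were used. With each library left out in turn, the core median ranged from -1.69 to -1.11 and the regulatory median from -1.45 to -1.21. Without alms1MUT replicate 2, 25 members were lower (8 core, 17 regulatory) and 1 was higher, compared with 14.0% and 8.11% of all genes. With library totals in place of the TMM factors the median of all genes was 0.57, and 11 core and 18 regulatory genes were still lower and 1 regulatory gene was higher, compared with 12.8% and 29.0% of all genes. On log2(TPM + 1), where the median of all genes was 0.69, 3 core and 3 regulatory genes were lower, 2 and 2 were higher, compared with 5.87% lower and 35.2% higher among all genes, and 15 members changed sign. On log2(TPM + 0.1) 2 core and 2 regulatory genes were lower and 2 and 2 higher, against 5.32% and 31.2% of all genes. The added constant understates the change of genes whose TPM is low beside it. The core median was -0.44 on log2(TPM + 1) and -0.45 on log2(TPM + 0.1), so it depended little on the constant. With the replicate number as a block 14 core and 26 regulatory genes were lower, against 21.9% of all genes. With uniquely mapped reads 14 of 19 and 25 of 34 genes tested were lower and 1 was higher, against 25.2% and 20.3%. Under TMM, library totals and both TPM scales, 18 of 21 core and 34 of 36 regulatory genes lay below the median of all genes. Relative to that median the core median was -1.52 after TMM normalisation, -1.49 with library totals, -1.13 on log2(TPM + 1) and -1.43 on log2(TPM + 0.1). A change of scale moves all genes of a library nearly alike, apart from the constant added to TPM. The like counts and differences were thus largely fixed in advance and are no separate support. With the background level removed from every gene, 6 of 19 core and 14 of 36 regulatory genes were lower, and 1 regulatory gene was higher, compared with 15.4% and 10.6% of 23201 genes in all. The medians were -1.12 and -0.98 against -0.19. All directions below are those after TMM normalisation. Only psmb5, psmd2_3, psme3 and psme4a kept their call under every alternative run on them, and 20 of the 43 called members kept it under all but the TPM and library total scales.

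**Figure D2:**
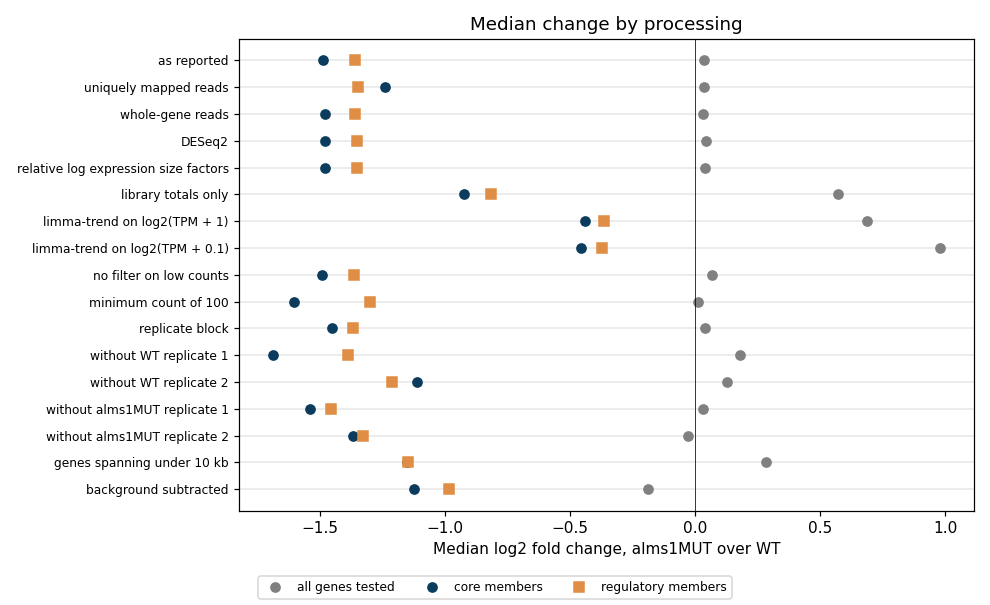
Median log2 fold change (alms1MUT over WT) of the core genes, the regulatory genes and all genes tested, under the processing as reported and each alternative. The medians of both gene groups lie below that of all genes in every row, and the groups come nearest to 0 on the TPM scale, at -0.44 and -0.36.

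All 9 alpha ring genes had both mutant libraries below both wild-type libraries, and 8 of them passed the test. Among all genes tested 37.8% lay so and 24.3% were called lower. These subunits form the outer rings, whose tails gate the entrance of the core. Of those with reads of their own, the smallest adjusted p was that of psma8, in mammals a germ cell form of an alpha subunit, with 94.8 and 137 CPM in wild type against 40.4 and 29.8 in the mutants. It was 3.30-fold lower (log2 fold change -1.72, standard error 0.28, adjusted p = 0.00228). The mammalian role need not hold here, where psma8 stood at 61.0 TPM in wild type and no member is named psma7. psma5 had 54.8 and 79.0 CPM against 24.5 and 15.8 (log2 fold change -1.73, standard error 0.31, adjusted p = 0.00344). For both genes the libraries of the groups lay far apart, and WT replicate 2 was the highest. Similar differences were measured for psma1 (69.2 and 107 CPM against 27.3 and 26.4, adjusted p = 0.00215) and for psma6l (12.2 and 15.1 against 3.67 and 3.71, adjusted p = 0.00529). Neither had a uniquely mapped read, because they lie inside the spans of slc10a3 and zgc:153039. Reads in the span that such a pair shares cannot be assigned to either gene. For psma2, which shares 14.2% of its span with strumpellin, 38.3% of reads were unique. The smallest differences were those of psma3, not called at -0.63, and psma6b, at -0.74, whose spans of 18077 and 18037 bp are the longest of the alpha ring, and both had the opposite sign on the TPM scale. With the background level removed psma2, psma4, psma6a and psma6b were no longer called (adjusted p = 0.133, 0.0856, 0.134 and 0.315). Without alms1MUT replicate 2 the calls of psma2, psma4, psma6a and psma6b were lost (adjusted p = 0.0582, 0.0765, 0.104 and 0.222). psma6a and psma6b also lost it without alms1MUT replicate 1 (0.0573 and 0.158) and without WT replicate 2 (0.0662 and 0.188).

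Of the 7 genes of the constitutive beta ring 6 were lower, among them all 3 catalytic subunits. The share lower among all genes tested was 24.3%. The smallest adjusted p of the core was that of psmb5, the chymotrypsin-like subunit and the main target of proteasome inhibitors, which lies on chromosome 2 of GRCz10 from 38390945 to 38410251. It had 183 and 268 CPM in wild type against 55.8 and 54.2 in the mutants, 4.10-fold lower (log2 fold change -2.04, standard error 0.26, adjusted p = 0.00107). The mutant libraries were nearly equal and lay far below both wild-type libraries. psmb4, a non-catalytic subunit, had 38.0 and 62.4 CPM against 15.7 and 9.80 (-1.98, standard error 0.35, adjusted p = 0.00332). psmb3 had 90.6 and 143 CPM against 42.9 and 40.6 (-1.49, standard error 0.27, adjusted p = 0.00371). psmb1, at 53.2 ± 1.09 TPM not resolved from psmb7 as the highest of the group, had 87.0 and 142 CPM against 42.3 and 29.2 (-1.68, standard error 0.31, adjusted p = 0.00385). The trypsin-like subunit psmb7 fell by 1.14 on the log2 scale and the caspase-like subunit psmb6 by 1.66, and both calls were lost without alms1MUT replicate 2 (adjusted p = 0.119 and 0.0563). psmb2, with 30.4 and 50.1 CPM against 24.1 and 21.1, missed the threshold (adjusted p = 0.0517) and had the opposite sign on the TPM scale. After removal of the background level psmb1, psmb3, psmb6 and psmb7 were no longer called (adjusted p = 0.0537, 0.0568, 0.0818 and 0.136).

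The inducible and tissue beta genes stood apart in level. Their mean TPM in wild type ran from 0.184 to 2.74, compared with 9.11 to 53.2 in the constitutive ring. In the mutants 1 of the 5 (20%) was called lower, near the 24.3% of all genes tested. In mammals psmb8, psmb9 and psmb10 replace the catalytic subunits in the immunoproteasome, and psmb11 does so in the thymic cortex. Of the zebrafish genes, 4 lay side by side on chromosome 19 of GRCz10, psmb8a from 7186913 to 7191655, psmb10 from 7192854 to 7196250, psmb12 from 7196313 to 7200526 and psmb9a from 7201509 to 7203448. A RefSeq gene table of the later assembly GRCz12tu gives psmb10 as an older name of psmb13a, beside psmb8a, so that this entry may carry the later name psmb13a. psmb9a had 46 and 53 reads in wild type against 9 and 4 in the mutants (log2 fold change -3.31, standard error 0.93, adjusted p = 0.0205), a call lost without WT replicate 2 (0.0777) or either mutant library (0.0512 and 0.127). Over its 1940 bp the background level would give 15.6 and 10.1 reads in wild type against 29.1 and 42.2 in the mutants, above the reads counted there. With that level removed psmb9a was no longer called (adjusted p = 0.0529). psmb8a had 66 and 65 reads in wild type against 37 and 52 in the mutants (adjusted p = 0.240), and psmb10 had 28, 24, 60 and 49 (adjusted p = 0.489). psmb11b had 11, 3, 38 and 39 reads (adjusted p = 0.0959), below the background level of 33.1, 21.5, 61.8 and 89.7 in every library. For psmb12 both mutant libraries lay above, with 3.16 and 2.03 CPM against 7.24 and 3.84, as they did for 39.1% of all genes tested. The difference of 1.09 did not pass the test (standard error 0.53, adjusted p = 0.125). No core gene was higher by edgeR, at an unadjusted p of 0.05 either, or by DESeq2, whereas psmb11b and psmb12 were the 2 called higher on log2(TPM + 1).

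The ATPase genes fell together. psmc1a to psmc6 encode the ring that unfolds substrates, and all 7 of them were lower, against 24.3% of all genes tested. That left psmc3ip as the 1 gene of the group not called. psmc2 had 73.9 and 88.3 CPM in wild type against 22.9 and 20.7 in the mutants, 3.72-fold lower (log2 fold change -1.90, standard error 0.24, adjusted p = 0.000983). psmc6 had 103 and 142 CPM against 38.0 and 32.1 (-1.81, standard error 0.25, adjusted p = 0.00140). psmc4 had 115 and 129 against 42.8 and 38.4 (-1.59, standard error 0.22, adjusted p = 0.00142). In each of these genes both mutant libraries lay below both wild-type libraries, with the wider spread in wild type. psmc5 had 80.1 and 79.9 CPM against 24.9 and 29.7 (adjusted p = 0.00173). psmc3, highest of the group by TPM, had 90.7 and 118 against 42.6 and 38.8 (-1.36, adjusted p = 0.00317), and was not called after removal of the background level (0.0579). The paralogs psmc1a and psmc1b stood at 62.1 and 67.3 and at 65.2 and 73.8 CPM in wild type, and at 24.0 and 23.5 and at 43.8 and 28.8 in the mutants. The call of psmc1b (-0.94, adjusted p = 0.0220) was lost without alms1MUT replicate 2 (0.204), and on the TPM scale it had the opposite sign. With the background level removed psmc1b was no longer called (adjusted p = 0.212). psmc3ip, the gene that is no subunit, had 12.5 and 3.61 CPM against 19.8 and 20.2 (1.31, standard error 0.52, adjusted p = 0.0696). It was called higher by DESeq2 (adjusted p = 0.0318), with a replicate block (0.0281) and without WT replicate 1 (2.56, 0.000169), and 61.5% of its reads were unique. Its span meets that of mlx. The 2 regulatory members called higher by DESeq2, with the replicate block and on either TPM scale were psme4a and psmc3ip.

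Of 18 non-ATPase entries 14 were lower, against 24.3% of all genes tested, and all 18 had a log2 fold change below 0. These genes encode the lid, the ubiquitin receptors and the scaffold of the regulatory particle. The short entry psmd2_3, which carries the name of a scaffold subunit of the base, had 55.8 and 84.1 CPM in wild type against 12.9 and 11.6 in the mutants, 5.71-fold lower (log2 fold change -2.51, standard error 0.29, adjusted p = 0.000747). The other psmd2 entries did not follow it closely. psmd2_1 had 41.5 and 29.6 CPM against 14.1 and 16.2 (adjusted p = 0.00924, but 0.0644 without alms1MUT replicate 1). psmd2_2 had 54.3 and 17.8 against 25.1 and 26.6, so that its wild-type libraries lay on either side of the mutants (adjusted p = 0.403), and its sign turned without WT replicate 1. The next by adjusted p were 3 lid subunits. psmd7 had 84.6 and 114 CPM against 29.8 and 26.4 (-1.82, standard error 0.25, adjusted p = 0.00130), and 1.77% of its span is shared with LOC100537993. psmd3 had 132 and 94.1 against 34.5 and 33.6 (-1.73, standard error 0.25, adjusted p = 0.00156), and psmd8 had 122 and 141 against 48.8 and 44.4 (-1.49, adjusted p = 0.00179). psmd14, the enzyme that removes ubiquitin chains at the pore, had 31.3 and 32.5 CPM against 24.0 and 19.4, which did not pass (-0.55, standard error 0.26, adjusted p = 0.111). The ubiquitin receptor psmd4 was lower in both copies, psmd4b by 1.44 on the log2 scale (adjusted p = 0.00233) and psmd4a by 0.92 (adjusted p = 0.0229, lost without WT replicate 2 or either mutant library at 0.0777, 0.0743 and 0.160). Of the 3 base chaperones, psmd10 (-2.22, adjusted p = 0.00431, no uniquely mapped read because it lies within the span of nxt2) and psmd9 (-1.31, adjusted p = 0.0242, lost without alms1MUT replicate 1 at 0.102) were lower, and psmd5 was not called (-0.30, standard error 0.28). Calls were also lost without alms1MUT replicate 2 for psmd1, psmd6, psmd9, psmd11a, psmd11b and psmd12 (adjusted p = 0.0622, 0.0509, 0.107, 0.0899, 0.325 and 0.0716). psmd1, psmd11a and psmd11b lost theirs without alms1MUT replicate 1 as well (0.236, 0.0740 and 0.0763), as did psmd1 and psmd11b without WT replicate 1 (0.0661 and 0.176) and psmd9 without WT replicate 2 (0.0541). Removal of the background level cost psmd1, psmd2_1, psmd4a and psmd9 their calls (adjusted p = 0.203, 0.0695, 0.258 and 0.0924). It also cost psmd10, psmd11a, psmd11b and psmd12 theirs (0.0553, 0.139, 0.572 and 0.0880). On the TPM scale psmd1, psmd2_2, psmd4a, psmd5, psmd11a, psmd11b, psmd13 and psmd14 had the opposite sign. The span of psmd1 overlaps htr2b, which had 0 reads in every library.

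**Figure D3:**
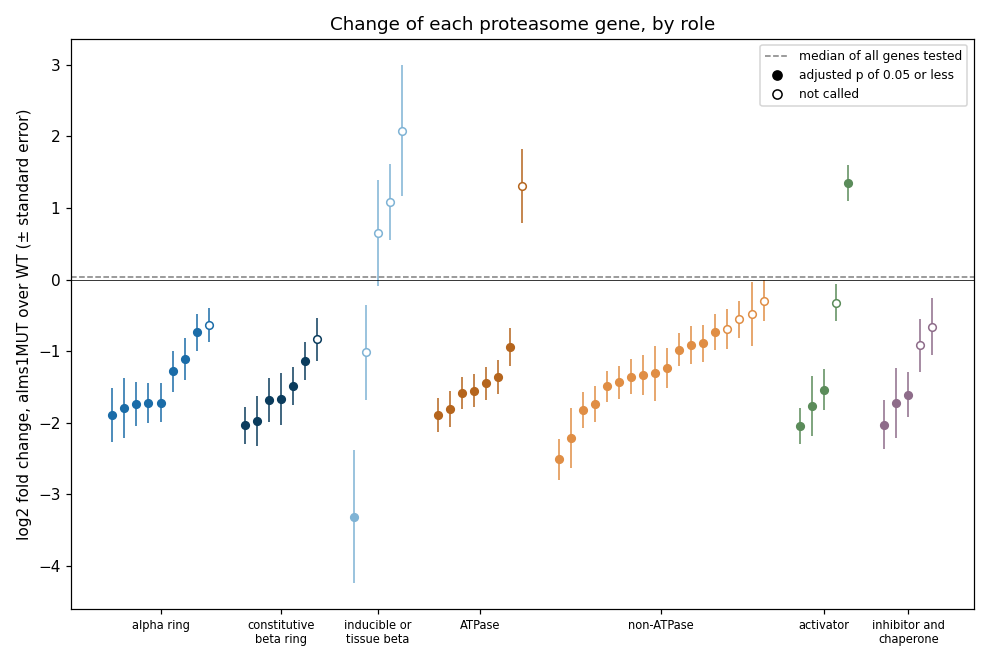
log2 fold change (alms1MUT over WT, edgeR) of each of the 57 genes with its standard error, ordered within each role, filled where the adjusted p was 0.05 or less. Of the filled points 42 lie below 0 and 1, psme4a at 1.35, lies above it, and on log2(TPM + 1) 15 of all 57 genes had the opposite sign.

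Of the 5 activator genes 3 were lower and 1 was higher, against 24.3% and 19.2% of all genes tested. psme1, psme2 and psme3, subunits of the ring-shaped PA28 activators that open the core without ATP, were lower. Of the psme4 genes, which encode the nuclear activator PA200, psme4a was higher and psme4b was not called. psme3 had 48.8 and 55.6 CPM in wild type against 12.3 and 13.0 in the mutants, 4.12-fold lower (log2 fold change -2.04, standard error 0.25, adjusted p = 0.000940). psme2 had 29.1 and 36.7 CPM against 12.8 and 9.90 (-1.54, adjusted p = 0.00442), and psme1 had 14.5 and 26.0 against 7.48 and 4.47 (-1.76, standard error 0.42, adjusted p = 0.0108, but 0.0666 without alms1MUT replicate 2). With the background level removed psme1 was no longer called (adjusted p = 0.109). The spans of psme2 and psme3 overlap lsm5 and skap1 over 3.48% and 2.74% of their length. psme4a lies on chromosome 13 of GRCz10 at 35563910 to 35619125 and had 14.6 and 16.8 CPM in wild type against 41.8 and 38.2 in the mutants (1.35, standard error 0.26, adjusted p = 0.00438). Its 674 and 605 wild-type reads and 2065 and 2350 mutant reads stood over a background level of 443 and 289 and of 829 and 1202 reads for its span of 55216 bp. With that level removed it remained called higher (2.33, adjusted p = 0.0284). That level is a low one, the 10th percentile of long coding genes. Their median was 19.2 and 14.5 reads per kb in wild type against 32.0 and 40.4 in the mutants. All genes tested of 20 kb or more had a median log2 fold change of 0.40. Whether psme4a rose beyond other long genes was not tested. The paralog psme4b, spanning 61757 bp, had 69.6 and 104 CPM against 64.6 and 74.1, with overlapping groups (-0.32, standard error 0.26, adjusted p = 0.328), and the sign turned with library totals, on the TPM scale, with the background removed and without WT replicate 2. The ratio of psme4a to psme4b was 0.210 and 0.162 in wild type against 0.648 and 0.515 in the mutants, a difference that was not tested.

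The assembly factors were lower in 3 of 5 cases, against 24.3% of all genes tested. The chaperones psmg1 to psmg4 pair up to guide the alpha ring, and psmf1 encodes the inhibitor PI31. psmg1 had 19.8 and 23.8 CPM in wild type against 6.28 and 4.44 in the mutants, 4.07-fold lower (log2 fold change -2.02, standard error 0.34, adjusted p = 0.00287). psmg3 had 32.0 and 52.7 CPM against 15.6 and 12.3 (-1.61, standard error 0.32, adjusted p = 0.00518, but 0.0858 with the background level removed). psmg4 had 6.39 and 13.7 against 3.40 and 2.68 (adjusted p = 0.0222), had no uniquely mapped read because it lies within LOC101884821, and lost its call without WT replicate 2 (0.135) or either mutant library (0.0566 and 0.106). psmg2 missed the threshold, with 15.1 and 21.2 CPM against 12.1 and 7.18 (-0.92, adjusted p = 0.0743, and 0.0429 without WT replicate 1). psmf1 had 7.95 and 13.7 CPM against 6.71 and 7.0 (-0.66, adjusted p = 0.209). Both psmg2 and psmf1 had the opposite sign on the TPM scale. The call of psmg4 was also lost with the background level removed (adjusted p = 0.118).

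Members with a short span had the lower fold changes. The 28 genes under 10 kb had a median log2 fold change of -1.72, and 24 of them were lower, compared with a median of -0.29 and 27.4% lower for all genes of that span. Of 23 genes of 10 to 20 kb 16 were lower at a median of -1.11, against -0.23 and 29.7%. Of the 6 genes of 20 kb or more, psmd1 and psmd2_1 were lower and psme4a was higher, at a median of -0.31 against 0.40 and 17.5%. Across the 57 members, which are not independent replicates, the Spearman correlation of span and log2 fold change was 0.49, and it was 0.16 over all genes tested. Without psmc3ip and the inducible and tissue beta genes it was 0.70 over 51 members, and 0.59 with the background level removed. Of the genes so left out, the short psmb10, psmb11b and psmb12 went against the trend (0.66, 2.08 and 1.09). psmb8a, psmb9a and psmc3ip went with it. No gene was left out in this way from the value over all genes. When genes under 10 kb were fitted alone, 6 of 13 core and 8 of 15 regulatory genes were lower, compared with 13.6% of such genes, their medians being -1.15 and -1.15 against 0.28.

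**Figure D4:**
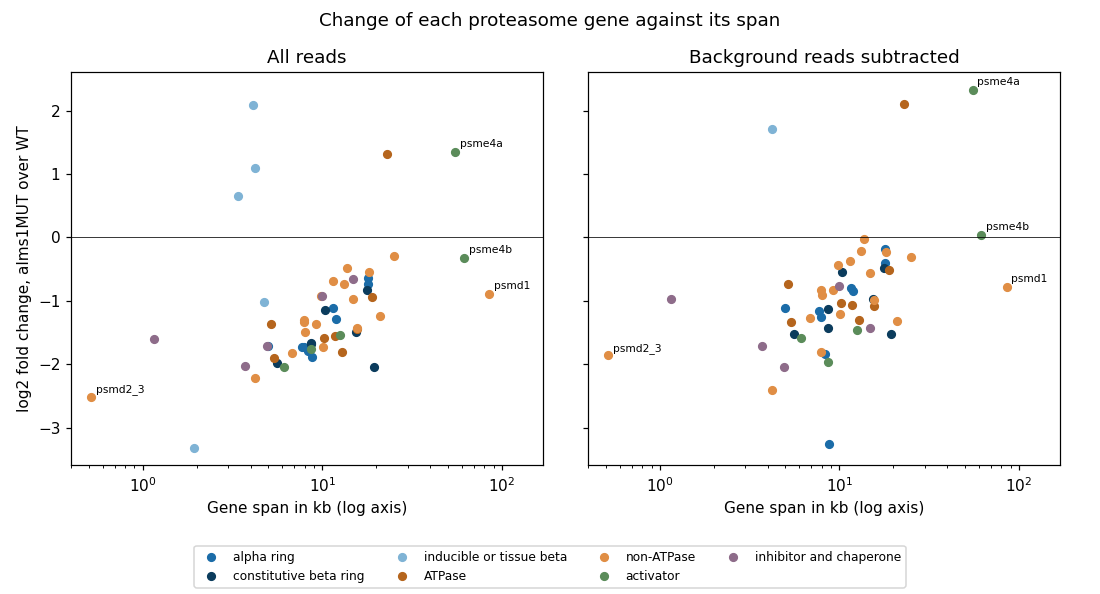
log2 fold change (alms1MUT over WT) of each proteasome gene against its span in kb (log axis), coloured by role, with all reads on the left and after removal of the background level on the right. The right panel leaves out psmb10 and psmb11b, which were not tested there, and psmb8a and psmb9a, which had 0 mutant reads left. On the left the shortest member, psmd2_3, lies at -2.51, and psme4a and psme4b, among the longest, lie at 1.35 and -0.32.

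Summed over the core genes, the levels were 974 and 1432 CPM in wild type against 480 and 385 in the mutants, so that the gap between groups was larger than the spread within either. The regulatory genes summed to 1964 and 2173 CPM against 927 and 860.

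Genes that work with the proteasome were lower as well. Of 62 genes on 5 lists outside the naming rule, chosen with earlier results of these data known, 38 were lower and 1 was higher, compared with 24.3% and 19.2% of all genes tested, at a median log2 fold change of -1.38. Without alms1MUT replicate 2 there were 25 lower, against 14.0% of all genes, and on log2(TPM + 1) and log2(TPM + 0.1) there were 17 and 13, against 5.87% and 5.32%. Of 15 genes of ubiquitin and its activation 13 were lower, led by the E1 enzyme uba1, with 194 and 225 CPM in wild type against 41.5 and 41.8 in the mutants (-2.33, adjusted p = 0.000548). The conjugating enzymes ube2l3b (-2.09) and ube2na (-1.95) followed it. Of 6 further proteasome genes 3 were lower, the ubiquitin receptor adrm1 (29.6 and 49.5 CPM against 10.2 and 9.31, adjusted p = 0.00222), the small subunit shfm1 (-1.77) and pomp, which completes the core (-1.49). Of 13 genes that deliver substrates 6 were lower, with nsfl1c (-1.96), ubqln4 (-1.56) and sqstm1 (-1.59) first by adjusted p. Of 14 genes listed for the transcription of proteasome genes 9 were lower and mafgb was higher (1.27, adjusted p = 0.0227). The call of mafgb was lost without WT replicate 2, without either mutant library and with the background level removed. That list was led by nfe2l2a, a regulator of the oxidative stress response, with 526 and 465 CPM against 70.5 and 77.6 (-2.74, adjusted p = 0.000493), mafk (-2.20) and maff (-1.68). The Nrf1 genes nfe2l1a and nfe2l1b had -1.01 (adjusted p = 0.0354) and -1.67 (adjusted p = 0.00191). Of 14 genes of peptide presentation 7 were lower, led by the chaperone pdia3 (-2.13) and the class I genes b2ml (-2.34) and mhc1zba (-1.97), while the transporter gene tap1 had 8.60 and 6.09 CPM against 10.4 and 10.5 (adjusted p = 0.292).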

How the data were processed

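The library kit (Nextera XT) keeps no strand information. For alignment to GRCz10 the authors used CLC Genomics Server v10.0.1. Neither annotation nor read filter is stated in the labels or methods. The deposited counts are whole reads per gene, taken as all exon reads, or as all gene reads where no exon is annotated (15924 genes). The deposited TPM were computed by the authors per kb of exon length, which equals the gene span for 99.4% of genes, so that intron reads are included. Members and lists were chosen with earlier results of these data known. Replicates differed by more than sampling noise (chi-square per degree of freedom 151 and 55.2).

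Mutant and wild-type libraries were compared with edgeR 4.0.16 in R 4.3.3 (TMM normalization, filterByExpr, quasi-likelihood F test, Benjamini-Hochberg adjustment over 28079 genes, threshold 0.05). Adjusted p-values are from this fit unless another is named. CPM are relative to TMM-scaled library sizes, and the standard error is the log2 fold change over the square root of F. The fit was tested on simulated data. Alternatives were uniquely mapped or whole-gene reads, DESeq2 1.42.0, other scalings and filters, limma 3.58.1 on log2(TPM + 1) or log2(TPM + 0.1), a replicate block, each library left out, genes under 10 kb, and subtraction of the background level (its reads per kb, times the span). Genes given by library were, for each role, the member with the highest wild-type TPM and up to 4 with the smallest adjusted p. Any member called against its role was included. From each list up to 3 genes with the smallest adjusted p were named, of which only uba1, adrm1 and nfe2l2a are given by library. Others (psma2, psma3, psma4, psma6a, psma6b, psmb2, psmb6, psmb7, psmb10, psmc1a, psmc1b, psmc3ip, the other psmd genes, psme4b, psmf1, nfe2l1a, nfe2l1b, mafgb and tap1) were added after their values were seen. Chromosome numbers were taken from the chromosome that holds most shared symbols in a RefSeq gene table of GRCz12tu. Summaries were computed in Python 3.11.15 with pandas 2.3.3, scipy 1.17.1 and numpy 2.4.6, and plots drawn with matplotlib 3.10.9.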

Additional observations from a re-analysis of the deposited data

How the results depend on the processing

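With 2 libraries a group, the scale and single libraries limit these results. Beside 5380 genes higher and 6835 lower, library totals gave 8145 and 3605, log2(TPM + 1) 9871 and 1648, log2(TPM + 0.1) 8768 and 1495, genes under 10 kb alone 1553 and 1643 of 12079, and removal of the background level 2455 and 3579 of 23201. The 2 last tested fewer genes, but the share lower was also smaller, at 13.6% and 15.4% against 24.3% as reported. In the fit of all genes 27.4% of those under 10 kb were lower. The cause of these changes was not tested.

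Members called lower, 42 of 57, numbered 6 (3 core, 3 regulatory) on log2(TPM + 1), 4 (2 and 2) on log2(TPM + 0.1), 14 (6 and 8) of 28 under 10 kb and 20 (6 and 14) with the background removed. Members called higher, 1 of 57, numbered 2 by DESeq2 and 2 with the replicate block (all regulatory), 4 (2 core, 2 regulatory) on either TPM scale and 0 (0 regulatory) under 10 kb. That 1 member, psme4a, spans 55216 bp and was not part of the fit under 10 kb. Pathway genes called lower, 38 of 62, numbered 17 and 13 on the TPM scales and 11 of 21 under 10 kb, and those called higher, 1, numbered 3 with library totals, 3 on log2(TPM + 1), 0 under 10 kb and 0 with the background removed.

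The core median log2 fold change was -0.92 with library totals, -0.44 and -0.45 on the TPM scales, -1.15 under 10 kb and -1.12 with the background removed. The regulatory median was -0.82, -0.36, -0.37 and -0.98 with library totals, on both TPM scales and with the background removed. As a mean over libraries, the regulatory share of reads was 0.187% of protein-coding reads and 0.185% with the background removed in wild type. In the mutants it was 0.110% of uniquely mapped reads, 0.114% of protein-coding reads and 0.127% with the background removed, and the core share was then 0.0655%.

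With each library left out in turn, all genes higher ranged from 2310 to 6769 and lower from 3975 to 6563. Core genes lower ranged from 8 to 16 and regulatory genes lower from 17 to 26, together from 25 to 42. Members higher ranged from 1 to 2, all regulatory. Pathway genes lower ranged from 25 to 38 and higher from 0 to 2, and the core median from -1.69 to -1.11. The lowest counts of members called lower and of all genes in either direction were those without alms1MUT replicate 2.

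Directions turned, on log2(TPM + 1) and log2(TPM + 0.1) in that order, for psma3 (0.33, 0.35), psma6b (0.24, 0.26), psmb2 (0.18, 0.20), psmc1b (0.024, 0.027), psmd1 (0.079, 0.090), psmd11a (0.014, 0.016), psmd11b (0.24, 0.25), psmd13 (0.27, 0.30), psmd14 (0.38, 0.43), psmd2_2 (0.63, 0.72), psmd4a (0.078, 0.083), psmd5 (0.57, 0.69), psme4b (0.61, 0.69), psmf1 (0.30, 0.37) and psmg2 (0.043, 0.048). With library totals psmd5 (0.25) and psme4b (0.24) turned, as did psme4b with the background removed (0.037). With each library left out, psmd2_2 ranged from -1.06 to 0.63 and psme4b from -0.49 to 0.00267, the highest values being those without WT replicate 1 and without WT replicate 2.

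Libraries with the same replicate number did not deviate alike from their group means (r = -0.0962). With 2 libraries a group this is a single value, which cannot exclude that such libraries were prepared together. With the replicate numbers as a block 40 members were lower and 2 higher. In that fit psma6b and psmd11b lost and psmc3ip gained a call (adjusted p = 0.0806, 0.0521 and 0.0281).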
